A study of Homo sapiens with 6 samples.

Results

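The BCL2 family comprises the proteins that decide whether the mitochondrial outer membrane is opened during apoptosis. The 10 members described here were chosen by gene symbol, as every probe of the bead signal table that the platform annotation assigns to BCL2L1, BCL2L2, MCL1, BAX, BAK1, BIK, BID, BAD, BBC3 or PMAIP1 under a current or older name. They have 19 of the 47225 probes in the table and are 10 of the 20043 genes named on the array. Transcript levels were measured on Illumina expression arrays in HCT116, an established cell line from a human colorectal carcinoma. There were 3 samples carrying a short hairpin RNA against TCF7L1 (shTCF7L1), and 3 carrying a control hairpin (shCtrl). The series calls the 3 samples of each condition biological replicates. All 6 samples share the line, and the labels give neither the hairpin sequences nor the time after their introduction. TCF7L1 is a DNA-binding protein of the TCF/LEF family in Wnt signalling, and the series asks which transcripts differ on its knockdown.

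In this family, anti-apoptotic proteins such as BCL-xL (BCL2L1), BCL-w (BCL2L2) and MCL1 hold the effectors BAX and BAK1 in check. The effectors, once free, oligomerise and let cytochrome c out of mitochondria. BH3-only proteins such as BIK, BID, BAD, PUMA (BBC3) and NOXA (PMAIP1) sense damage or loss of growth signals and bind the anti-apoptotic proteins, the effectors or both. Transcript levels are only one of their controls, since several members are regulated by cleavage, phosphorylation or protein turnover.

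Since TCF7L1 binds DNA, the known promoter windows of the members were searched for a single form of the TCF/LEF motif. RefSeq windows of GRCh38.p14, from 250 bases before to 50 after a gene start, were at hand for 7 of the 10 members, 13 windows in all; BIK, BCL2L2 and MCL1 had none. The letters searched were CTTTGAT on either strand, where the other strand reads ATCAAAG. Other forms of the motif were not searched. The letters searched occur in 919 (2.62%) of all 35116 windows and in 1 of the 13 member windows, that of BAK1. It is printed with the match in capitals, beside both windows of BCL2L1, the member with the largest difference, which hold no match. A match is a run of letters and not a binding site, and these arrays do not measure binding.
BAK1, minus strand, chr6:33580227-33580526: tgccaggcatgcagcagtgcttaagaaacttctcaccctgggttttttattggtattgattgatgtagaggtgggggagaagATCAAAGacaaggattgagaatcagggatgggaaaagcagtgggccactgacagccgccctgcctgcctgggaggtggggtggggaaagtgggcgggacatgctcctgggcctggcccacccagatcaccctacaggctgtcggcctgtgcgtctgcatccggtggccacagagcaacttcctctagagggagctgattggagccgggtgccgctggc
BCL2L1, minus strand, chr20:31723914-31724213: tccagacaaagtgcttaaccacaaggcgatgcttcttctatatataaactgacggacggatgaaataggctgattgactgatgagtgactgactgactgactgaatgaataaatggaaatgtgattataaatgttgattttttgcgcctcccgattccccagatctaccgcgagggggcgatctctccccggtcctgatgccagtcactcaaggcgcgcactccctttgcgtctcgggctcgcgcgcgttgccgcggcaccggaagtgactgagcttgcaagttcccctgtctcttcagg
BCL2L1, minus strand, chr20:31722819-31723118: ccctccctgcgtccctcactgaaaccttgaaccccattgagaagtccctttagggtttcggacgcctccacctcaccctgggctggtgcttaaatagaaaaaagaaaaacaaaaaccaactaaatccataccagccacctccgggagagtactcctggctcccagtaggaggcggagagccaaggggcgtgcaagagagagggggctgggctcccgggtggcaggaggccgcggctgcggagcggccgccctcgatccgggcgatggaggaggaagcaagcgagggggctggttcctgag

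The arrays had mean bead signals of 165 to 171 in shTCF7L1 and 162 to 177 in shCtrl samples, and 34.0% to 36.8% of probes were detected per array (detection p below 0.01, a signal above the negative control beads). Over the 16835 probes detected on at least 3 arrays, the Pearson correlation was 0.974 to 0.977 for arrays of the same group and 0.949 to 0.954 for arrays of different groups. Each group occupied its own run of neighbouring chip positions, so the effect of position cannot be told apart from that of the hairpin. TCF7L1 itself gave bead signals of 29.3, 32.4 and 25.4 in shTCF7L1 samples, against 45.1, 35.8 and 40.6 in shCtrl samples. It was above background on 0 of 3 shTCF7L1 and 2 of 3 shCtrl arrays. With its shTCF7L1 levels raised to the lowest detected signal, the shCtrl mean was 1.02-fold higher. That mean includes the shCtrl array not above background, so the value is not a firm bound. In a limma fit without a detection filter the log2 difference of TCF7L1 was -0.53 (SE 0.12, adjusted p = 0.0807). Of 8 epithelial markers 6 were detected on all arrays, EPCAM, CDH1, KRT8, KRT18, KRT19 and CDX2, while KRT20 reached 1 array and VIL1 none. Of 8 markers of other cells 5 were detected on 0 arrays, among them PTPRC, CD3E and PECAM1. COL1A1 and ALB were detected on all 6. The summed signal of these 8 markers was 311 to 429 in shTCF7L1 and 261 to 289 in shCtrl samples. COL1A1, a fibroblast collagen, had bead signals of 176, 85.4 and 129 in shTCF7L1 and 49.4, 60.3 and 70.7 in shCtrl samples and rose 2.20-fold (log2 1.14, SE 0.28, limma adjusted p = 0.0128). The epithelial keratin KRT8 had bead signals of 951, 833 and 1317 in shTCF7L1 and 1561, 2219 and 1732 in shCtrl samples and fell by 0.82 on the log2 scale (SE 0.24, limma adjusted p = 0.0340). The other detected epithelial markers did not pass in limma by their brightest kept probe. Their log2 differences were 0.42 (EPCAM), 0.08 (CDX2), -0.02 (KRT19), -0.37 (KRT18) and -0.53 (CDH1). The summed epithelial signal was 7188 to 9756 in shTCF7L1 and 7972 to 9949 in shCtrl samples. The part of these markers in the results on the BCL2 family was not tested.

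Of the 19 member probes 16 were detected on at least 3 arrays and every member kept at least 1 probe. Of the 10 members, each read by its brightest kept probe, 2 rose in shTCF7L1 cells, BCL2L1 and BIK, and 8 did not pass the threshold, an adjusted p below 0.05 in limma. Over all 10470 genes read the same way 7.35% rose and 6.70% fell, and no test was made of 2 in 10 members against that share. At the level of probes 3 of 16 rose and 0 fell, where 6.46% of all kept probes rose and 6.58% fell. An unadjusted p below 0.05 was found for 7 of 16 member probes, against 28.3% of all probes, and 12 of 16 had a positive difference, against 50.7%. By unadjusted p below 0.05 the count was 4 of 10 members, against 29.7% of all genes. The median log2 difference of the members was 0.46, beside 0.02 over all genes, and 9 of 10 had a positive value, beside 52.0% of all genes. In a sample of bulk RNA, more cells with a transcript and more transcript per cell cannot be told apart.

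**Figure D1:**
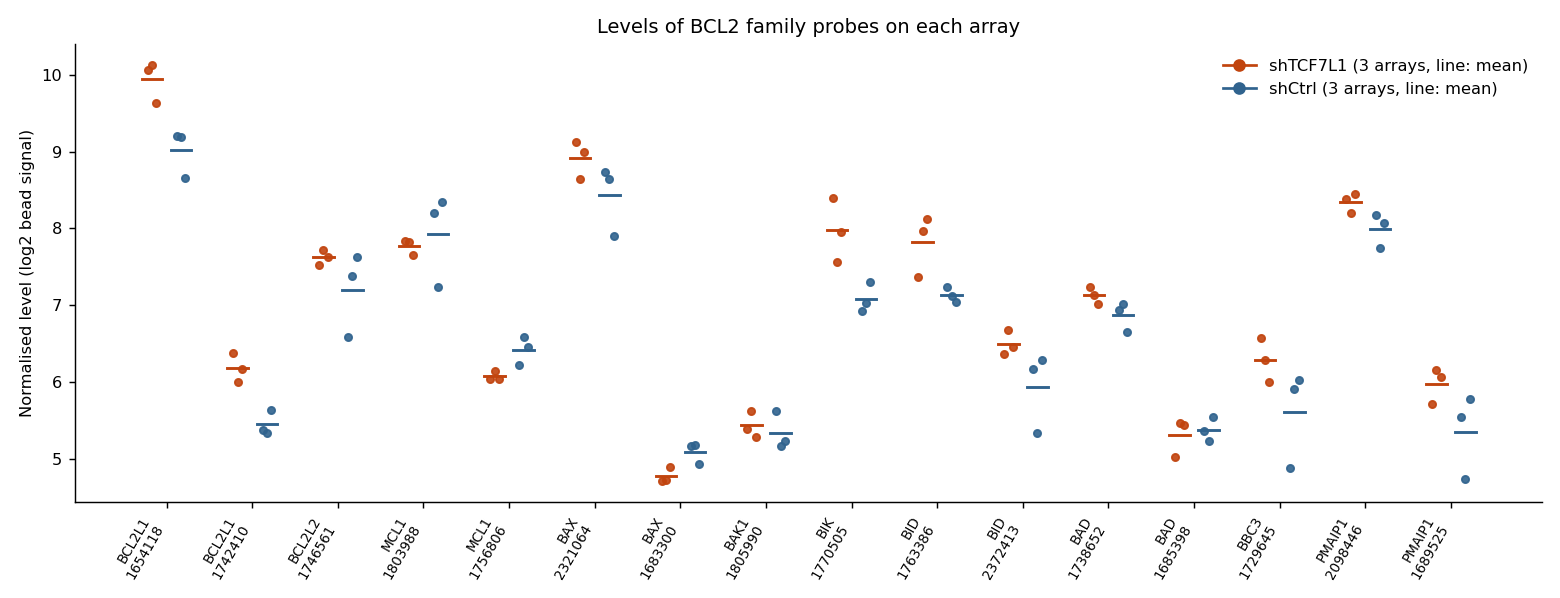
Normalised log2 bead signal (vertical axis) of the 16 kept member probes on each array, with 3 shTCF7L1 samples at the left and 3 shCtrl samples at the right of each pair; points are arrays and lines are group means. In 8 of 16 probes the groups do not overlap, in either direction, where 32.4% of all kept probes behave so. Among them are both BCL2L1 probes and BIK, with every shTCF7L1 array above every shCtrl array. Brightness is not comparable between probes.

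Among the anti-apoptotic members the transcript of BCL2L1 was higher in knockdown cells and those of BCL2L2 and MCL1 did not pass. Which isoform of BCL2L1 the probes read could not be checked. The brighter of both BCL2L1 probes (ILMN_1654118) read bead signals of 1083, 1147 and 783 in shTCF7L1 samples, against 631, 551 and 408 in shCtrl samples. After normalization the log2 levels were 10.06, 10.13 and 9.63 in shTCF7L1 and 9.20, 9.18 and 8.66 in shCtrl samples. Each knockdown array therefore stood above each control array, with replicate 3 the lowest of its group on either side. The difference was 1.90-fold (log2 0.92, SE 0.22, 95% interval 0.45 to 1.39, limma adjusted p = 0.0121).

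The other BCL2L1 probe (ILMN_1742410), annotated to the same transcript NM_138578, is dimmer. It read bead signals of 97.2, 79.5 and 85.0 in shTCF7L1, against 53.7, 48.8 and 59.9 in shCtrl samples, again with no overlap. The log2 levels averaged 6.18 ± 0.19 in shTCF7L1 and 5.45 ± 0.16 in shCtrl samples (SD, n = 3 each). Here the transcript was 1.66-fold higher (log2 0.73, SE 0.20, limma adjusted p = 0.0251). The contrast between the readings of both probes was 0.20 on the log2 scale (pooled SD between arrays 0.41, exact 2-sided permutation p = 0.7). With 3 against 3 arrays that test cannot go below 0.1, so it cannot decide whether both probes differ. With 1 array left out the brighter probe lost its call without shCtrl replicate 3 (limma adjusted p = 0.0624), shTCF7L1 replicate 1 (0.0504) or shTCF7L1 replicate 2 (0.0532). The dimmer probe lost it when shCtrl replicate 1 or 2, or shTCF7L1 replicate 1 or 3, was left out (up to 0.0899), and with a background offset of 50 its log2 difference was 0.45.

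BCL2L2 encodes BCL-w, a close relative of BCL-xL. Its log2 level was 7.52, 7.72 and 7.63 in shTCF7L1 samples and 6.59, 7.39 and 7.63 in shCtrl samples. The groups overlapped at the top, with shCtrl replicate 1 far below the rest. The log2 difference of 0.42 (SE 0.25, 95% interval -0.10 to 0.94) did not pass (limma adjusted p = 0.276), and without shCtrl replicate 1 it was 0.12.

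MCL1, a short-lived protein that restrains BAK1, is read by 2 probes, and neither passed. Probe ILMN_1803988 gave log2 levels of 7.83, 7.83 and 7.66 in shTCF7L1 samples, against 8.20, 7.24 and 8.35 in shCtrl samples. The shCtrl arrays lay on both sides of the knockdown arrays. Its log2 difference was -0.16 (SE 0.26, limma adjusted p = 0.726), and 0.048 without shCtrl replicate 3. Probe ILMN_1756806 read 6.04, 6.14 and 6.05 in shTCF7L1, against 6.23, 6.58 and 6.46 in shCtrl samples. These groups did not overlap, yet the log2 difference of -0.35 (SE 0.20, 95% interval -0.76 to 0.07) did not pass (limma adjusted p = 0.265). The 95% interval of ILMN_1803988 (-0.70 to 0.38) overlapped that of the dimmer BCL2L1 probe (0.30 to 1.15). The other pairs of intervals of MCL1 and BCL2L1 probes did not overlap, and a difference between these genes was not tested.

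**Figure D2:**
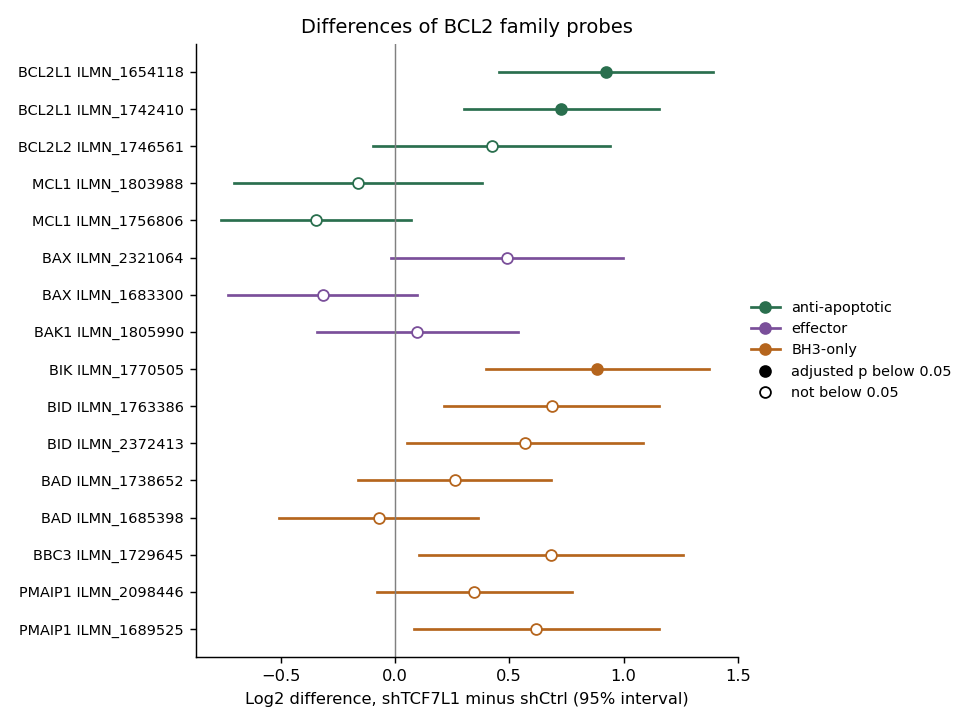
Log2 difference, shTCF7L1 minus shCtrl (horizontal axis), of the 16 kept member probes with 95% intervals, coloured by role; filled points have a limma adjusted p below 0.05. The filled points are both BCL2L1 probes and BIK, and 12 of 16 points lie above 0.

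The effectors did not pass. For BAX the bright probe (ILMN_2321064) read bead signals of 576, 431 and 515 in shTCF7L1 samples and 463, 376 and 244 in shCtrl samples. The log2 levels averaged 8.92 ± 0.25 in shTCF7L1 and 8.43 ± 0.46 in shCtrl samples (SD, n = 3 each). The groups overlapped, and shCtrl replicate 3 was the lowest array. The log2 difference was 0.49 (SE 0.24, 95% interval -0.019 to 0.996, limma adjusted p = 0.194), and 0.23 without shCtrl replicate 3.

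A dimmer BAX probe (ILMN_1683300), annotated to NM_004324 where the bright one is annotated to NM_138764, pointed the other way. Its levels were 4.72, 4.73 and 4.89 in shTCF7L1, against 5.17, 5.19 and 4.94 in shCtrl samples, without overlap. It was detected on 1 of 3 shTCF7L1 arrays and on all 3 shCtrl arrays. The log2 difference of -0.32 (SE 0.19) did not pass (limma adjusted p = 0.304). Since this probe was not above background on 2 of 3 shTCF7L1 arrays, its level there is only a bound, and no difference between the BAX probes is reported. The third BAX probe (ILMN_2258383) was detected on 0 of 6 arrays, with bead signals of 25.0 to 29.9 in shTCF7L1 and 30.2 to 36.2 in shCtrl samples.

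BAK1, the second effector and the member whose promoter window holds the letters searched, read 5.40, 5.63 and 5.29 in shTCF7L1 samples, against 5.62, 5.17 and 5.24 in shCtrl samples. The values of both groups were interleaved. Its log2 difference was 0.10 (SE 0.21, 95% interval -0.34 to 0.54, limma adjusted p = 0.797), which leaves room for a 1.45-fold increase or a decrease to 0.790 of the control level. The probe was dim, at bead signals of 52.0 to 64.1 in shTCF7L1 and 44.8 to 61.4 in shCtrl samples. With a background offset of 50 its log2 difference was 0.05 (SE 0.13), so the interval holds only for the offset used.

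The BH3-only members gave the other call. BIK, whose protein sits mostly in the endoplasmic reticulum membrane, had bead signals of 359, 211 and 262 in shTCF7L1 samples, against 135, 131 and 164 in shCtrl samples. On the log2 scale these were 8.40, 7.56 and 7.96 in shTCF7L1 and 6.93, 7.03 and 7.30 in shCtrl samples. The groups did not overlap, and shTCF7L1 replicate 1 stood highest. BIK rose 1.85-fold (log2 0.89, SE 0.23, 95% interval 0.40 to 1.37, limma adjusted p = 0.0184). The call ended with shCtrl replicate 1 left out (0.0689), with shCtrl replicate 2 left out (0.0592) and with shTCF7L1 replicate 1 left out (0.0872), where the log2 difference was 0.67 to 0.86.

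BID is cut by caspases into an active fragment that links death receptors to mitochondria. Its brighter probe (ILMN_1763386) read 7.37, 7.97 and 8.12 in shTCF7L1, against 7.24, 7.13 and 7.05 in shCtrl samples, without overlap. The log2 difference of 0.69 (SE 0.22, 95% interval 0.22 to 1.15) lay just outside the threshold (limma adjusted p = 0.0514). It passed in 8 of 16 alternatives, among them the fit with 1 probe per gene (0.0465) and the authors' processed values (0.0307), and the adjusted p ran from 0.0214 to 0.171. With the authors' values the median log2 difference over all kept probes was itself higher, 0.090 against 0.008 in the reported fit. A second probe (ILMN_2372413) read 6.37, 6.68 and 6.46 in shTCF7L1 and 6.18, 5.34 and 6.29 in shCtrl samples. It gave 0.57 (SE 0.24, limma adjusted p = 0.136), with shCtrl replicate 2 the lowest array. The third BID probe (ILMN_2259495) was detected on 0 of 6 arrays, at bead signals of 34.4 to 40.4 in shTCF7L1 and 21.8 to 31.7 in shCtrl samples.

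PUMA and NOXA are BH3-only proteins whose genes are switched on by cell stress. The BBC3 probe, for PUMA, read 6.58, 6.29 and 6.01 in shTCF7L1 samples, against 4.89, 5.91 and 6.03 in shCtrl samples. The lowest knockdown array fell just under the highest control array, and shCtrl replicate 1 lay more than 1 log2 unit below the other control arrays. On shCtrl replicate 1 the probe was close to background, with a bead signal of 41.7 and a detection p of 0.0065. A log2 difference of 0.68 (SE 0.27, 95% interval 0.11 to 1.26) did not pass after adjustment (limma adjusted p = 0.109), and without shCtrl replicate 1 it was 0.32.

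For PMAIP1 the brighter probe (ILMN_2098446) read 8.39, 8.21 and 8.44 in shTCF7L1 and 8.17, 7.74 and 8.07 in shCtrl samples. The dimmer one (ILMN_1689525) read 5.71, 6.16 and 6.07 in shTCF7L1, against 5.55, 4.75 and 5.78 in shCtrl samples. Groups did not overlap in the brighter probe and overlapped in the dimmer one. The log2 differences were 0.35 (SE 0.20, limma adjusted p = 0.276) and 0.62 (SE 0.25, limma adjusted p = 0.117), so NOXA transcript did not pass by either probe. The dimmer probe was not above background on shCtrl replicate 2, where its level is only a bound. Without that array its log2 difference was 0.31.

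BAD, which is held inactive by phosphorylation, had no probe past the threshold. Probe ILMN_1738652 read 7.24, 7.13 and 7.01 in shTCF7L1 and 6.94, 7.02 and 6.65 in shCtrl samples, a log2 difference of 0.26 (SE 0.20, limma adjusted p = 0.419). The lowest knockdown array was just under the highest control array. Probe ILMN_1685398 gave -0.07 (SE 0.21, limma adjusted p = 0.856), with levels of 5.03 to 5.47 in shTCF7L1 and 5.24 to 5.55 in shCtrl samples. The remaining BAD probe (ILMN_1720360) was detected on 1 of 3 shTCF7L1 arrays and 0 of 3 shCtrl arrays, at signals of 31.4 to 40.8 in shTCF7L1 and 29.9 to 38.5 in shCtrl samples.

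Across the members, groups did not overlap in 4 of 10 (BCL2L1, BIK, BID and PMAIP1), where 33.9% of all genes behaved so. Ranked from the highest log2 difference down, BCL2L1 stood at place 296 and BIK at place 352 of 10470 genes, and MCL1 at place 6966. The order of the members by log2 difference was BCL2L1, BIK, BID, BBC3, BAX, BCL2L2, PMAIP1, BAD, BAK1 and MCL1. The SE of each value was 0.20 to 0.27.

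**Figure D3:**
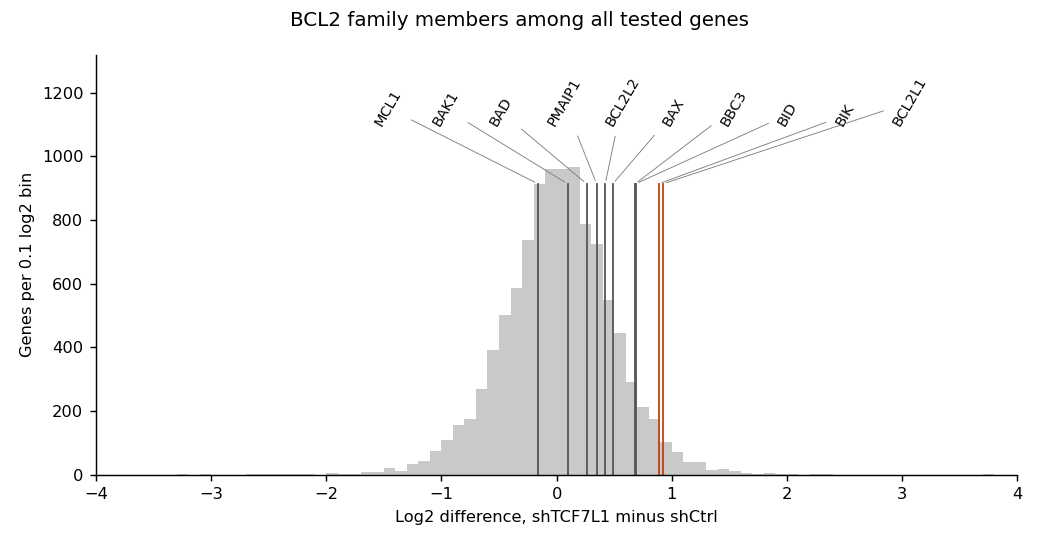
Number of genes per bin of 0.1 (vertical axis) by log2 difference, shTCF7L1 minus shCtrl (horizontal axis), for all 10470 tested genes (grey), with 1 line per member at its own value. BCL2L1 and BIK (coloured lines, adjusted p below 0.05) lie in the upper flank at 0.92 and 0.89, and MCL1 lies below 0 at -0.16.

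Other genes around the members were read from 7 lists holding 77 genes, of which 58 were tested, 4 rose, 6 fell and 48 did not pass. Over all 10470 genes 7.35% rose and 6.70% fell, the shares to set beside the count of each list. An unadjusted p below 0.05 in limma was found for 16 of the 58, against 29.7% of all genes. No list was tested against these shares. Relatives of the members were mostly dark. Of 11 other BCL2 family genes only 4 passed the detection filter, BCL2L12, BCL2L13, BOK and HRK, and 0 changed in limma (1 at an unadjusted p below 0.05). Their median log2 difference was -0.27. The gene of smallest p among them was BCL2L13, a mitochondrial relative, at 8.46, 7.75 and 8.74 in shTCF7L1 and 8.79, 9.20 and 8.68 in shCtrl samples (log2 -0.57, SE 0.25, limma adjusted p = 0.144). None of the 4 probes of BCL2 itself was detected on more than 2 arrays, and none of the 3 probes of BCL2L11, which encodes BIM, on more than 1.

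Of 12 genes for BH3-like or BCL2-binding proteins, which include BCL2L13 of the list before, 2 fell and 1 rose, while 9 missed the threshold; the median was -0.03. BNIP3 and BNIP3L encode mitochondrial receptors for mitophagy that carry a BH3-like stretch. BNIP3 read 6.83, 6.88 and 6.64 in shTCF7L1, against 10.21, 9.78 and 10.02 in shCtrl samples (log2 -3.22, SE 0.20, limma adjusted p = 3.51e-07). BNIP3L fell as well, by 1.10 on the log2 scale (SE 0.22, limma adjusted p = 0.00382), and its other kept probe gave -1.71. MOAP1, whose protein binds BAX, rose 1.83-fold (log2 0.87, SE 0.22, limma adjusted p = 0.0165), with levels of 8.49, 8.20 and 7.73 in shTCF7L1 and 7.42, 7.10 and 7.27 in shCtrl samples. That call ended without shCtrl replicate 2 or shTCF7L1 replicates 1 or 2 (up to 0.0782).

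Downstream of the membrane, 1 of 8 tested genes of release and the apoptosome fell and 7 missed the threshold; the median was 0.01. CASP9, the caspase activated on the apoptosome, read 5.59, 5.16 and 5.22 in shTCF7L1, against 6.15, 6.40 and 5.93 in shCtrl samples. It fell by 0.84 on the log2 scale (SE 0.21, limma adjusted p = 0.0155), a call that ended without shCtrl replicate 2 (0.0700) or shTCF7L1 replicate 2 (0.0627). Among 9 tested partners at the mitochondrial outer membrane 3 fell and 6 missed the threshold; the median was -0.11. TOMM20 and TOMM22, receptors of the protein import complex, fell by 0.81 (SE 0.19) and 0.74 (SE 0.21) on the log2 scale, and MFN1, which fuses mitochondria, fell by 0.68 (SE 0.21), with limma adjusted p of 0.0115, 0.0281 and 0.0467. The other TOMM20 probe gave -1.07. With any array but shTCF7L1 replicate 3 left out, TOMM22 and MFN1 did not pass (up to 0.114 and 0.148). MFN1 missed the threshold in 10 of 16 alternatives, also with all arrays: with the authors' processed values (0.0943), median scaling (0.0666), offset 50 (0.0693), no background correction (0.0660) and no detection filter (0.120).

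Among 7 tested genes for the turnover of MCL1 and other members 2 rose and 5 missed the threshold; the median was 0.08. Both that rose encode F-box proteins of ubiquitin ligases. FBXW7, known to target MCL1, read 7.66, 7.65 and 7.84 in shTCF7L1, against 6.85, 6.71 and 7.02 in shCtrl samples (1.81-fold, log2 0.86, SE 0.20, limma adjusted p = 0.00930), and its other kept probe gave 1.10. BTRC rose 1.78-fold (log2 0.83, SE 0.23, limma adjusted p = 0.0240), with levels of 6.73, 7.16 and 6.43 in shTCF7L1 and 5.87, 5.74 and 6.23 in shCtrl samples. The BTRC call ended when replicate 1 or 2 of either group was left out (up to 0.108).

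Of 12 tested kinases and phosphoserine-binding adaptors that control BAD, 0 changed in limma by their brightest kept probe (2 at an unadjusted p below 0.05), with a median of -0.12. For the adaptor YWHAZ, named after its values were seen, that probe gave 0.35 (SE 0.26, limma adjusted p = 0.416), but its other kept probe (ILMN_1669286) fell, at 7.10, 6.21 and 6.39 in shTCF7L1 and 7.36, 7.44 and 7.55 in shCtrl samples (log2 -0.89, SE 0.23, limma adjusted p = 0.0194). That probe was detected on all 6 arrays and its groups did not overlap, so the probes of YWHAZ disagree. The smallest p was that of the adaptor YWHAH (log2 0.59, SE 0.20, limma adjusted p = 0.0653), with levels of 11.59, 11.48 and 11.73 in shTCF7L1 and 10.87, 11.27 and 10.90 in shCtrl samples. It passed with a background offset of 50 (0.0289) and without background correction (0.0304). Of 7 tested transcription regulators of BH3-only genes 1 rose and 6 missed the threshold; the median was -0.01. MYC read 11.49, 11.12 and 11.11 in shTCF7L1, against 10.46, 10.64 and 10.48 in shCtrl samples (1.64-fold, log2 0.72, SE 0.20, limma adjusted p = 0.0262), while its other kept probe gave 0.29. The MYC call ended without shCtrl replicates 1 or 3 or shTCF7L1 replicate 1 (up to 0.0997) and with median scaling (0.0641). Listed genes with no named probe were not analysed here.

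**Figure D4:**
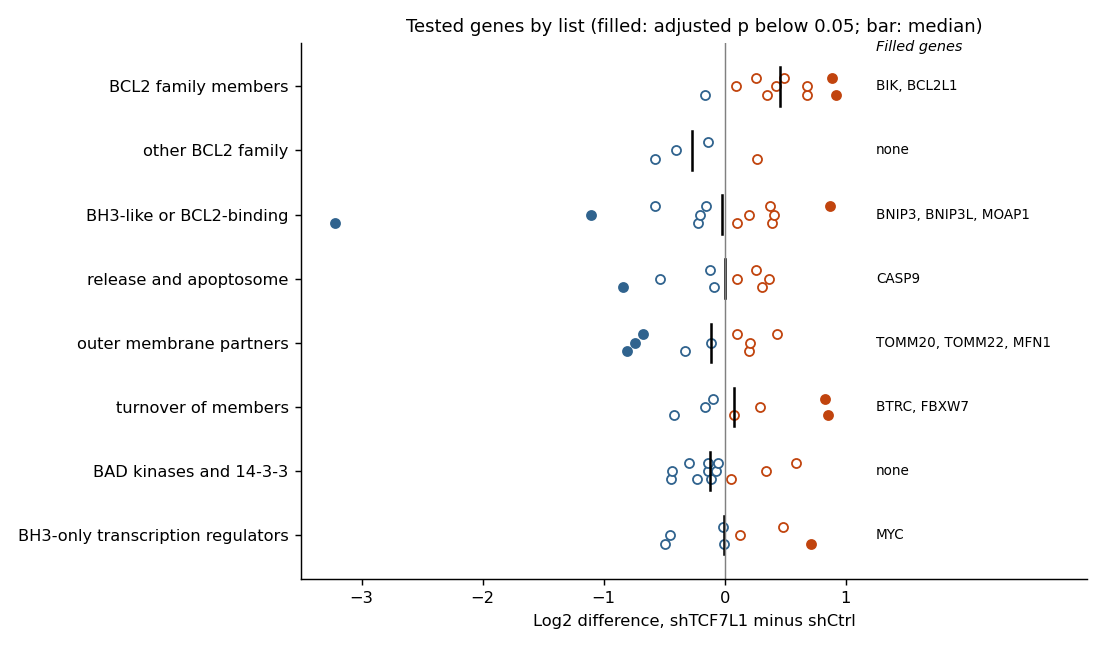
Log2 difference, shTCF7L1 minus shCtrl (horizontal axis), of each tested gene by list, with 1 point per gene, a bar at the list's median and filled points for a limma adjusted p below 0.05. The members' bar stands at 0.46 and those of the 7 other lists between -0.27 and 0.08.

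The members' differences were recomputed under 16 alternatives, 10 of them with all arrays. BCL2L1 (brighter probe) lay between 0.75 and 1.08 on the log2 scale over 16 alternatives and BIK between 0.67 and 1.09. With all 6 arrays, 7 of 10 alternatives called 3 members, adding BID, 2 called the same number as reported and 1 called 0. The calls over all probes ran from 1278 of 47225 without a detection filter to 2397 of 16835 with the authors' processed values. Leaving out 1 array, 1 or 2 members passed, and the brighter BCL2L1 probe and BIK both passed only without shTCF7L1 replicate 3.

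**Figure D5:**
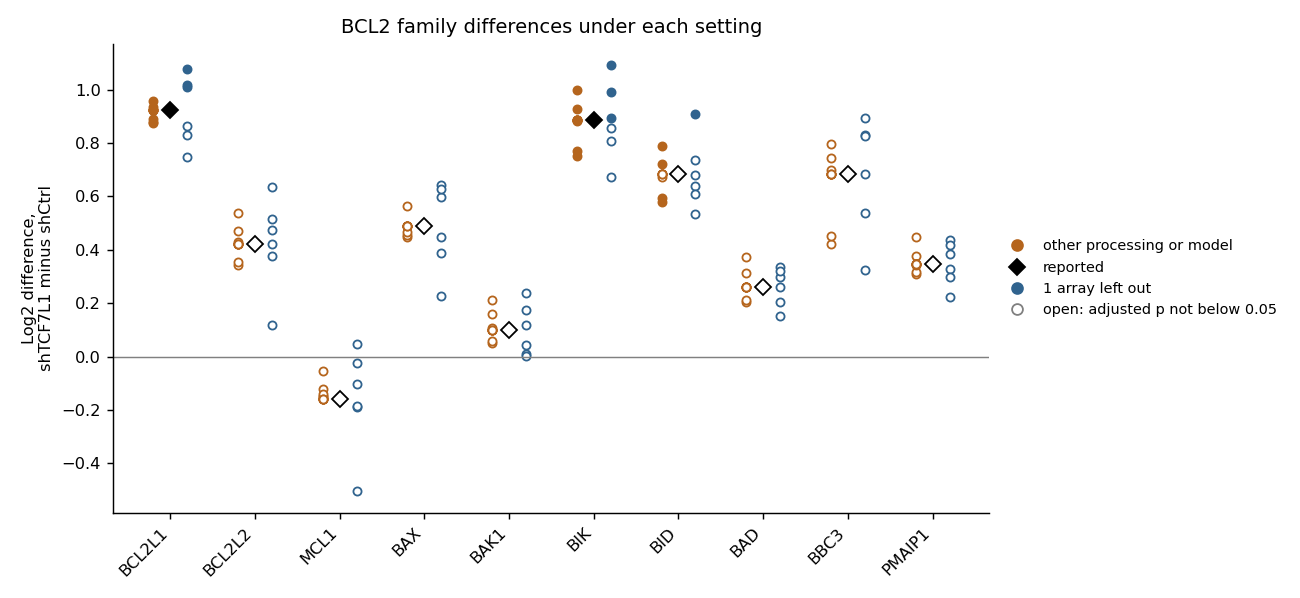
Log2 difference, shTCF7L1 minus shCtrl (vertical axis), of each member's brightest kept probe as reported (diamonds), under 10 other processing or model settings (left points) and with 1 array left out (right points); filled points have a limma adjusted p below 0.05. BCL2L1 and BIK stay above 0.67 throughout, and MCL1 crosses 0 without shCtrl replicate 3.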

How the data were processed

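Total RNA of 6 HCT116 samples was hybridised to Illumina arrays. The authors deposited a table of non-normalized bead intensity on a linear scale and a detection p-value per probe and array, made with GenomeStudio version 2011.1 per the submitters' processing notes. The authors' second table, of deposited processed intensity, was a straight line of the first on every array (background of 27.3 to 28.0 units subtracted, factor 0.978 to 1.08) and served as an alternative.

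Intensities were corrected with normexp (controls inferred from detection p, offset 16), quantile normalized and turned into log2 values (neqc; limma 3.58.1, R 4.3.3). Probes with detection p below 0.01 on at least 3 of 6 arrays were kept (16835). Groups were compared in 1 limma fit over these probes (lmFit, eBayes, 2-sided, no block), with Benjamini-Hochberg over all of them and 0.05 as threshold. Log2 differences are shTCF7L1 minus shCtrl. A gene was read by its kept probe of highest mean. The platform annotation gave 1 symbol for 30110 probes, several for 8, and 17107 were not listed; symbols were updated by Entrez identifier to GRCh38.p14 (30071 matched). The fit was also run on simulated data with independent noise per probe and no effect of chip position. That run does not test the calls reported here. The number of arrays limits the precision.

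The members and lists were chosen with earlier results of these data known. Named are TCF7L1, all members, and each list's called genes or its gene of smallest p. Same-numbered replicates of both groups did not deviate together (correlations of -0.0025 to 0.0045 between residuals). Alternatives were offset 50, no background correction, median scaling, the authors' values, stricter and no detection filter, trended robust variance, array weights, 1 probe per gene, a replicate block, and leaving out each array, with normalized values and kept probes as before.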

Additional observations from a re-analysis of the deposited data

How the results depend on the processing

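Calls by limma over all kept probes numbered 2195, with 49.5% of them upward; with the authors' processed values 2397 were called, 65.4% of them upward. Without a detection filter 47225 probes were tested and 1278 were called. In that fit 4 of 10 members had an unadjusted p below 0.05 in limma. The reported fit also had 4, where 29.7% of all genes did so, and the share without a filter was not counted. Without the filter 0 members passed in limma, and 5 list genes passed in place of 10. There the dimmer BCL2L1 probe still passed (adjusted p = 0.0457), and the brighter one (0.0757) and BIK (0.111) did not. With 1 probe per gene the fit called 1566 of 10470 genes. Leaving out 1 array gave 1 to 2 members, 5 to 10 list genes and 1424 to 1607 probes. The probe count moved by over 1.5 times with shCtrl replicate 2 left out (1445), likewise shCtrl replicate 3 (1444) and replicate 1 of shTCF7L1 (1424). For list genes this held for shCtrl replicate 1 (6) and, at 5 each, shCtrl replicate 2 and shTCF7L1 replicates 1 and 2. The member count was 1 without any array but shTCF7L1 replicate 3; the call left was BCL2L1 without shCtrl replicates 1 or 2, BIK without shCtrl replicate 3 or shTCF7L1 replicate 2, and BID without shTCF7L1 replicate 1. Fewer arrays were fitted in each case.

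Differences between probes of 1 member changed sign with single arrays left out: -0.074 to 0.34 for BCL2L1, -0.11 to 0.41 for BID and -0.24 to 0.42 for MCL1 on the log2 scale. Those of BAD (0.13 to 0.48) and PMAIP1 (0.09 to 0.44) kept theirs, though the dimmer PMAIP1 probe was not above background on shCtrl replicate 2. MCL1 (ILMN_1803988) ranged from -0.50 without shCtrl replicate 2 to 0.048 without shCtrl replicate 3. BAD (ILMN_1685398) turned to 0.037 with the authors' values, and with 1 array left out it ran from -0.15 without shTCF7L1 replicate 2 to 0.070 without shTCF7L1 replicate 1. Over the member probes and named list genes, 382 of 440 values kept direction and side of the threshold, 44 lost and 10 gained a call, and 4 changed sign; the cause was not tested. The replicate block gave 2 members, 2127 probes and 10 list genes, and the numbers mark no stated pairing. Probes near background bound what can be read of BCL2, BCL2L11 and the undetected probes of BAX, BID and BAD.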

Other observations

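Probes of 1 gene also had log2 differences of opposite sign among the neighbours of the family, in genes chosen after their values were seen. For DIABLO, whose protein leaves mitochondria with cytochrome c and blocks caspase inhibitors, the kept probe of highest mean gave a log2 difference of -0.53 (SE 0.23) and a second gave -0.62 (SE 0.20), while the third gave 0.17 (SE 0.22). In limma the adjusted p was 0.145, 0.0518 and 0.667. For BNIP1, a BH3-like protein of the endoplasmic reticulum, one probe gave -0.15 (SE 0.20) and another 0.60 (SE 0.20), with adjusted p of 0.669 and 0.0565 in limma. ATF4, a stress factor that activates several BH3-only genes, had probes at -0.01 (SE 0.22), 0.52 (SE 0.21) and -0.39 (SE 0.20), and none passed in limma (adjusted p of 0.981, 0.103 and 0.224). For the adaptor YWHAZ 1 of the opposed probes passed (0.35 against -0.89, adjusted p of 0.416 and 0.0194 in limma). Whether these probes read different transcripts was not tested.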
